A study of Mus musculus with 4 samples.

Results

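The Egr transcription factors, their Nab corepressors and the Nr4a nuclear receptors were followed in mouse T helper 17 (Th17) cells, the CD4 T cells that make IL-17 cytokines. They comprise 8 genes, Egr1, Egr2, Egr3, Nab1, Nab2, Nr4a1, Nr4a2 and Nr4a3, chosen by name among the 23356 gene rows of the authors' deposited table, and all 8 were present and tested there. Of the 4 libraries, 2 came from cells cultured with SAA1, the acute-phase protein serum amyloid A1 (recombinant, mouse), at a labelled 2 ng/ml. The others came from cells labelled as untreated and abbreviated veh, read here as vehicle. Both groups were Th17 cultures of 48 h from C57BL/6 mice of 6 to 8 weeks, described as wild type. The cells were differentiated in a dish, and the labels do not say whether libraries of a group came from separate cultures or animals, so the p-values may measure technical spread alone. Each group has a single value per gene in FPKM (fragments counted on a gene, per kilobase of its transcripts and scaled for the library's total), made by the authors from both libraries, so no value per library can be shown and no overlap between libraries can be judged.

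EGR1, EGR2 and EGR3 are zinc-finger transcription factors whose genes are switched on within the first hours of T cell receptor signalling, downstream of the ERK kinases, serum response factor (SRF) and, for Egr2 and Egr3, the calcineurin-NFAT pathway. NAB1 and NAB2 bind EGR proteins and recruit the NuRD chromatin complex, which damps transcription at EGR targets. Nr4a genes encode orphan nuclear receptors that act without a known classical ligand, and are induced by receptor signals through calcium, MEF2 factors and the cAMP-CREB pathway. In T cells, EGR2, EGR3 and the NR4A receptors are known for restraining activation and for roles in anergy, exhaustion and regulatory T cells.

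The gene starts of the members are shown first because they hold a feature that the choice of genes did not use. The RefSeq promoter table (GRCm38.p6) covers 250 bases before and 50 after each annotated start and had windows for 6 of the 8 members; Egr1 and Egr3 were not matched. Sequences run 5′ to 3′ on the gene's strand. Those of the Nr4a genes hold no base of an exon of the gene in GENCODE M21, and the Nr4a1 stretch lies within introns of longer annotated transcripts. The Egr2 stretch lies downstream of other annotated starts of its gene, so its bases may be transcribed, and exons were not excluded for it. For Egr2, which has 5 windows at different starts, 30 bases of the window at the start in the authors' table are shown. Capitals mark CRE half-sites, the letters TGACG or their reverse complement, which are the core recognised by CREB and its relatives, and, in Egr2 alone, also a CArG box, the element bound by SRF.
Nr4a1 (chr15:101266596-101266845, plus strand): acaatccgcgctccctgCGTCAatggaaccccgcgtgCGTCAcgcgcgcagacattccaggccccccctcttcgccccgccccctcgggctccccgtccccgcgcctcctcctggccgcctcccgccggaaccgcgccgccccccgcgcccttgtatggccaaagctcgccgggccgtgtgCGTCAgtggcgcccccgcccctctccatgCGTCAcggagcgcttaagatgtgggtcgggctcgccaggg
Nr4a2 (chr2:57124004-57124253, minus strand): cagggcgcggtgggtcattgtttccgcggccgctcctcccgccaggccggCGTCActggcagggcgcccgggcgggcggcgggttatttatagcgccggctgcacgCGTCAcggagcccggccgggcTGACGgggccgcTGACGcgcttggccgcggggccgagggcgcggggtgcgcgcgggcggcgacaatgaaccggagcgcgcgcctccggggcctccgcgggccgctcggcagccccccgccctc
Nr4a3 (chr4:48045055-48045152, plus strand): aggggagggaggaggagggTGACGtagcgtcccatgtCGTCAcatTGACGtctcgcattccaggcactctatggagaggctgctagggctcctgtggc
Egr2 (chr10:67537793-67537822, plus strand): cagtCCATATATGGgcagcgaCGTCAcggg

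Each of the 3 Nr4a windows of 300 bases held 4 CRE half-sites, counted on both strands. For Nr4a3 the last of them lies in the annotated first exon and is not printed, and the annotated start of its window lies 5943 bases upstream of the locus start in the authors' table. The Egr2 window held 2, 1 of which is printed, as did that of Egr4, the remaining Egr gene, while Nab1 held 1 and Nab2 none. Of the 4 further windows of Egr2, 2 overlap the one used and also held 2 half-sites, and 2 upstream of it held none. Among all 32851 windows of the table, 20.8% held at least 1 half-site and 0.231% held 4 or more. The half-site contains a CpG and these windows are rich in G and C, at 72.3% for Nr4a1, 81.7% for Nr4a2 and 64.7% for Nr4a3. Among the 9690 windows with at least 60% G and C, 31.6% held at least 1 and 0.557% held 4 or more. No window of a member held the full palindrome TGACGTCA, which 1.79% of all windows contain. The sites are matches of letters, and no binding was measured here.

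Other motifs were searched in the same windows. The CArG box of the Egr2 window shown lay between its pair of half-sites, 72 to 63 bases before the start. Such a box was present in 1.63% of all windows and in 1.07% of those with at least 60% G and C. Sites for EGR proteins themselves (GCGTGGGCG or GCGGGGGCG) numbered 3 in the Nab1 window and 1 in that of Nr4a1, against 3.47% of windows with at least 1 and 0.0365% with 3 or more among all windows. Among the windows with at least 60% G and C those shares were 10.3% and 0.124%. The Nab1 window is richer still, at 81.7% G and C, and the share among windows that rich was not computed. The Nr4a recognition element AAAGGTCA was found in none of the 6 windows and in 1.51% of all windows. The core bound by NFAT (GGAAA) occurred once each for Egr2 and Nr4a2, beside 61.3% of all windows and 47.4% of those with at least 60% G and C. Another Egr2 window, at a start upstream of the one shown, held 3 NFAT cores and a further CArG box. The MEF2 site was found in none of the 6, beside 0.557% of all windows. These motifs were chosen as known elements of such genes with the sequences in view, both strands were searched, and no pair of the matches shown overlaps.

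**Figure D1:**
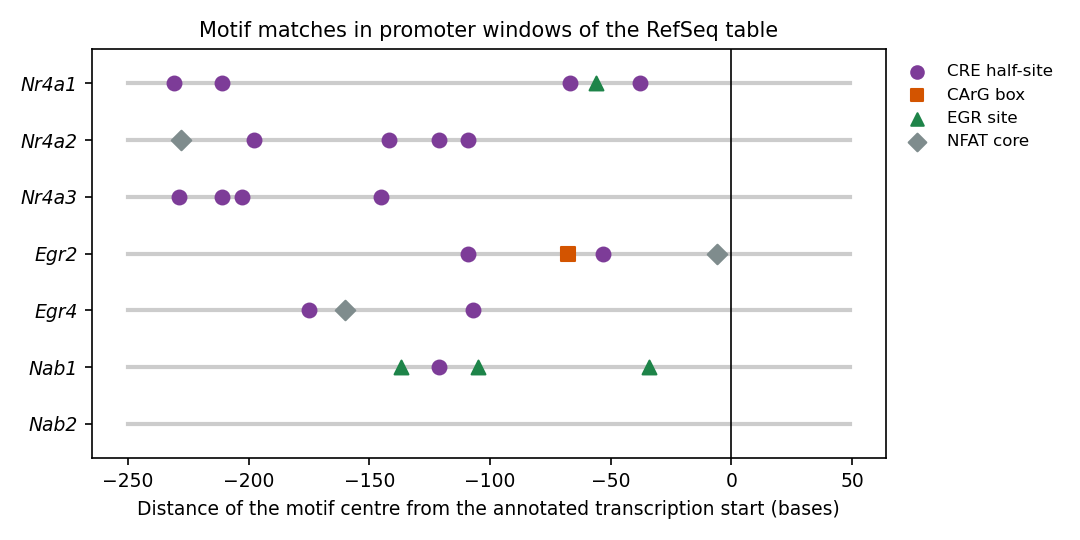
Motif matches by distance in bases from the annotated transcription start, at 0, in windows of 250 bases before and 50 after it; each grey line is a window and each symbol the centre of a match. The 3 Nr4a genes carry 4 CRE half-sites each, Egr2 and Egr4 carry 2, Nab1 carries 1 beside 3 EGR sites, and Nab2 carries none.

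All members were expressed in both groups. By FPKM, which corrects for transcript length, the levels with SAA1 ran from 128.6 for Nr4a1 through 55.2 for Nab2, 44.1 for Egr2, 19.9 for Nr4a2, 15.6 for Nab1, 10.9 for Egr1 and 10.4 for Nr4a3 to 4.62 for Egr3. In vehicle the order was Nr4a1 (102.6), Nab2 (54.6), Egr2 (47.4), Egr1 (20.4), Nab1 (14.7), Egr3 (12.1), Nr4a2 (11.8) and Nr4a3 (8.04). The same 3 genes stood at the top in both groups, and the changes of place lay below them, where Nr4a2 stood at place 4 with SAA1 and place 7 in vehicle. With a single value per group, which neighbours in either order differ beyond their spread cannot be said. Among the 10689 tested genes that reached 1 FPKM in a group, Nr4a1 was at percentile 93.1 with SAA1 and 91.1 in vehicle, and Egr3 at percentile 20.5 with SAA1 and 42.2 in vehicle.

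**Figure D2:**
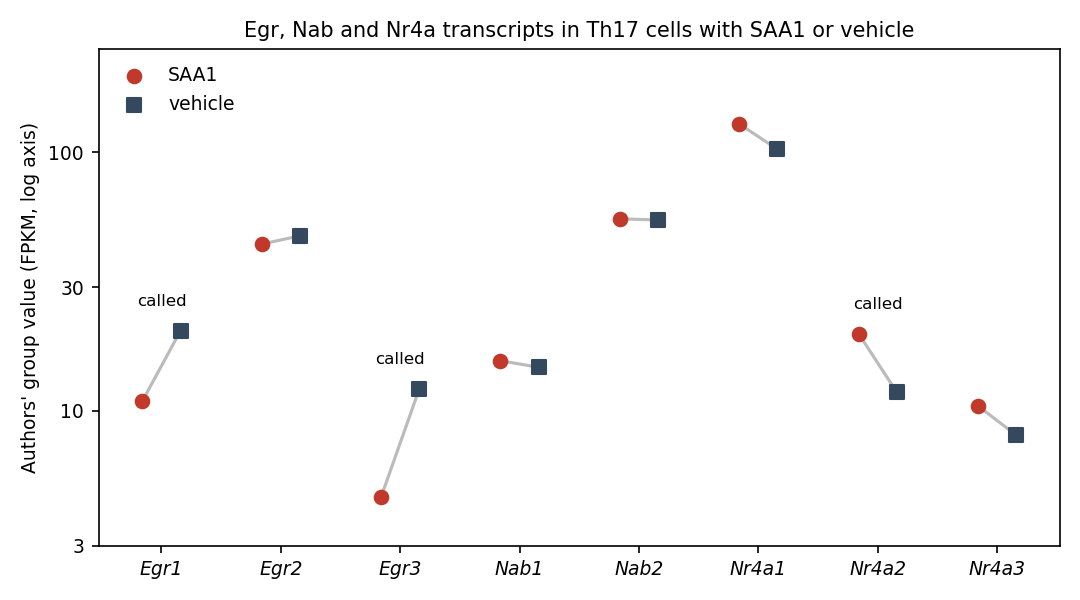
The authors' group value of each member in FPKM on a log axis, as a red circle for SAA1 and a dark square for vehicle, joined by a line; each point is a single value made from both libraries of its group, so there is no error bar. Egr1 and Egr3 are lower and Nr4a2 is higher with SAA1 (marked called); the pairs of points of Egr2, Nab1 and Nab2 lie close together.

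Of the 8 members, 2 fell and 1 rose with SAA1 at an adjusted p under 0.05 from Cuffdiff, taken from the authors' deposited table. Over all 11481 genes tested, 6.52% were called, 3.97% as higher and 2.55% as lower. The median log2 ratio of the 8 was 0.05, beside -0.02 over all tested genes that reached 1 FPKM. Calls went both ways among them. At an unadjusted p under 0.05 the table held 5 of the 8, namely Egr1, Egr3 and the 3 Nr4a genes, against 15.8% of all tested genes. The members had been named with earlier results of these data known, so these counts are a description. In RNA from whole cultures, fewer cells that express a gene and less of its RNA in each cell cannot be told apart.

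The Egr factors did not change alike. Egr3, which lies on chromosome 14 from 70077445 to 70080157 (mm10, plus strand), was at 4.62 FPKM with SAA1 against 12.1 FPKM in vehicle. That is 0.381 times the vehicle level, a log2 ratio of -1.39 ± 0.28 (the SE being that ratio over the authors' statistic). The authors' deposited table gave it an adjusted p of 0.0019. That value is the smallest there and belongs to a Cuffdiff p of 5e-05, which 300 genes share, so it does not rank Egr3 among them. Of tested genes that reached 1 FPKM, 57 had a lower ratio, counting those listed at 0 with SAA1. Egr1, on chromosome 18 from 34861207 to 34864956 (plus strand), was at 10.9 FPKM with SAA1 and 20.4 FPKM in vehicle, or 0.534 times, with a log2 ratio of -0.91 ± 0.22 and the same adjusted p of 0.0019 by the authors' deposited table. EGR1 is induced by growth factors and stress in many cell types, while EGR3 overlaps with EGR2 in its role in T cells.

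Egr2, the most abundant Egr transcript, did not pass the test. It lies on chromosome 10 from 67537869 to 67542188 (plus strand) and was at 44.1 FPKM with SAA1 and 47.4 FPKM in vehicle. Its log2 ratio was -0.11, with a 95% interval from the implied SE of -0.50 to 0.29, and the authors' deposited table gave an adjusted p of 0.85. On the log2 scale the Egr3 minus Egr2 difference was -1.28 (interval -1.97 to -0.60), and the Egr1 minus Egr2 difference was -0.80 (-1.38 to -0.22). Both intervals lie below 0, whereas that of Egr3 minus Egr1, at -0.49 (-1.19 to 0.22), includes it. These intervals add the implied SEs of both genes as if independent, and 7 such pairs within families were compared.

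Of the FPKM summed over the 3 Egr members, Egr2 made up 74.0% with SAA1 and 59.3% in vehicle. Egr3 made up 7.76% with SAA1 and 15.2% in vehicle, and Egr1 18.3% with SAA1 and 25.5% in vehicle. The sum was 59.6 FPKM with SAA1 and 79.9 FPKM in vehicle. Egr4, the family's remaining gene and not a member, was under 1 FPKM in both groups, at 0.192 with SAA1 and 0.556 in vehicle, and was not called (adjusted p 0.17 in the authors' deposited table).

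The Nab corepressors, which are themselves induced by EGR proteins as a feedback arm, differed little between groups. Nab2 was at 55.2 FPKM with SAA1 and 54.6 FPKM in vehicle, a log2 ratio of 0.02 with the widest interval of any member, -0.68 to 0.72 (adjusted p 0.99 in the authors' deposited table). Nab1, on chromosome 1 from 52455849 to 52500448 (minus strand), was at 15.6 FPKM with SAA1 and 14.7 FPKM in vehicle, with a log2 ratio of 0.08 (-0.32 to 0.49) and an adjusted p of 0.91 by the authors' deposited table. Nab1 minus Nab2 was 0.07 (-0.74 to 0.87). Nab2 is the only member whose row shares its locus, chromosome 10 from 127642986 to 127666703, with another gene. In GENCODE M21, Nab2 on the minus strand and Stat6 on the plus strand converge and overlap by 40 bases at their ends. Stat6, which encodes the transcription factor of IL-4 signalling, was at 78.5 FPKM with SAA1 and 82.6 FPKM in vehicle, and the sources used here do not give whether counting used strand.

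All 3 Nr4a transcripts had higher values with SAA1, and the increase of Nr4a2 was called. Nr4a2 encodes NURR1, best known in dopamine neurons and also made by stimulated T cells, and lies on chromosome 2 from 57107226 to 57124003 (minus strand). It was at 19.9 FPKM with SAA1 and 11.8 FPKM in vehicle, or 1.68 times, with a log2 ratio of 0.75 ± 0.21 and an adjusted p of 0.0019 by the authors' deposited table. Of tested genes that reached 1 FPKM, 344 had a higher ratio, counting those listed at 0 in vehicle.

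Nr4a1 encodes NUR77, a common reporter of T cell receptor signal strength, and lies on chromosome 15 from 101266846 to 101274794 (plus strand). It was at 128.6 FPKM with SAA1 and 102.6 FPKM in vehicle, a log2 ratio of 0.33 (-0.07 to 0.72), with a p of 0.021 before and 0.18 after adjustment in the authors' deposited table. Nr4a3, which encodes NOR1, on chromosome 4 from 48051248 to 48083352 (plus strand), was at 10.4 FPKM with SAA1 and 8.04 FPKM in vehicle. Its log2 ratio was 0.38 (-0.10 to 0.85), with a p of 0.032 before and 0.24 after adjustment in the authors' deposited table. For both genes the interval from the implied SE includes 0 although the deposited p is under 0.05, so the authors' p is not the normal p of their statistic, which would be 0.10 for Nr4a1 and 0.12 for Nr4a3.

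The Nr4a genes were not separated from each other by these data. Nr4a2 minus Nr4a1 was 0.43 (-0.15 to 1.00), Nr4a2 minus Nr4a3 0.38 (-0.26 to 1.01) and Nr4a3 minus Nr4a1 0.05 (-0.57 to 0.67) on the log2 scale. Their summed level was 158.8 FPKM with SAA1 and 122.4 FPKM in vehicle. Nr4a1 made up 80.9% of it with SAA1 and 83.8% in vehicle, and Nr4a2 12.5% with SAA1 and 9.63% in vehicle. The share of Nr4a3 was 6.57% in each group.

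**Figure D3:**
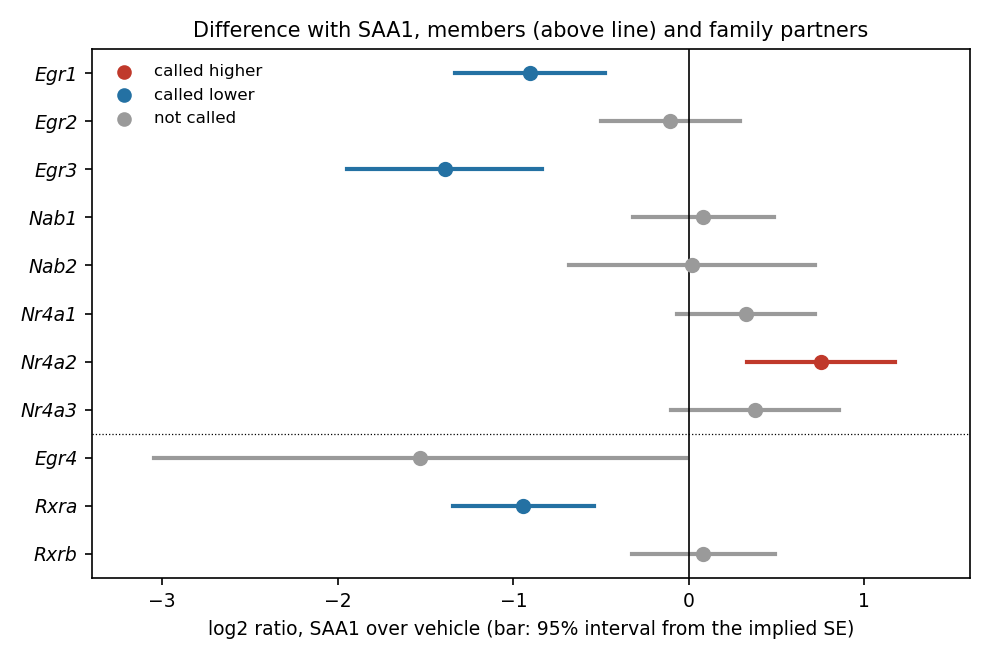
The log2 ratio of SAA1 over vehicle for the members (above the dotted line) and for Egr4, Rxra and Rxrb (under it), with 95% intervals from the SE implied by the authors' statistic; colour gives the call by the authors' adjusted p. Egr1, Egr3 and Rxra, which were called, and Egr4, which was not, lie below 0 and Nr4a2 above it, with intervals that leave out 0.

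**Figure D4:**
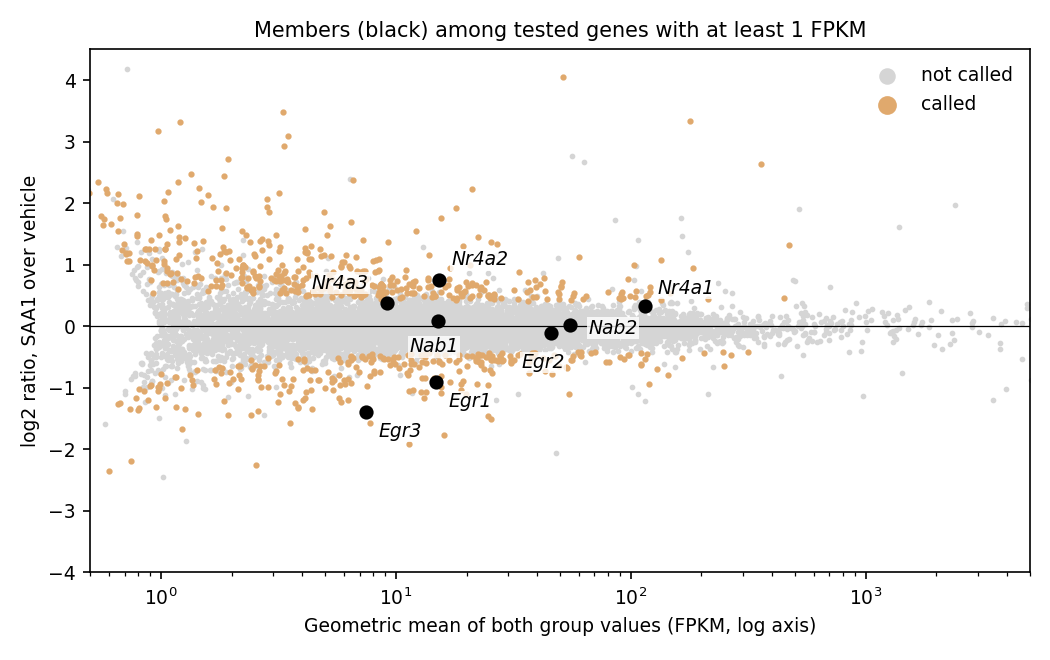
The log2 ratio of SAA1 over vehicle against the geometric mean of both group values in FPKM (log axis) for 10611 tested genes that reached 1 FPKM in a group and had a value above 0 in both, of which 33 lie outside the axes; members are black. Egr1 and Egr3 lie under and Nr4a2 above the grey cloud of genes that were not called, and the remaining members lie in or at the edge of it.

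Among the protein partners of the members, 1 receptor and 1 gene of the corepressor complex were called, beside 6.52% of all tested genes. Rxra, a retinoid X receptor that pairs with NR4A1 and NR4A2, fell to 13.6 FPKM with SAA1, against 26.1 FPKM in vehicle (log2 ratio -0.94 ± 0.20, adjusted p 0.0019 in the authors' deposited table). Rxrb was at 32.5 FPKM with SAA1 and 30.6 FPKM in vehicle (adjusted p 0.91 in the authors' deposited table). Rxrg was listed at 0 in both. The 13 tested genes of the NuRD complex, through which NAB proteins act, had a median log2 ratio of 0.05. Of them, 1 was called higher and none lower, 7.69% of the list, near the 6.52% of all tested genes. That gene was Chd3, a chromatin remodeller, at 28.8 FPKM with SAA1 and 18.5 FPKM in vehicle (0.64 ± 0.20, adjusted p 0.0019 in the authors' deposited table). Mta3, with the next largest difference, was at 21.0 FPKM with SAA1 and 16.5 FPKM in vehicle and was not called.

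Most calls among the other genes of these pathways rest on the authors' p. The lists were chosen with earlier results of these data known, so their counts are a description. Of the 24 genes called in the lists described here, 8 were also called from the normal p of the statistic, adjusted over all tested genes, namely Rxra, Ier3, Nfil3, Cd69, Cdkn1a, Nt5e, Ctla4 and Trat1. For the other 16 the adjusted normal p lay between 0.063 (Chd3) and 0.53 (Id3). Egr1, Egr3 and Nr4a2 were called either way, with adjusted normal p of 0.0031, 0.00017 and 0.025, as were 235 of the 749 genes called in all.

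RNA of genes in the pathways that induce the members was described next. The activity of these pathways was not measured. Among 18 tested genes of the ERK and SRF route, none was called by Cuffdiff in the authors' deposited table, 2 had an unadjusted p under 0.05, and none was called from the normal p of the statistic. Those 2 were Rps6ka1, a kinase downstream of ERK, at 55.7 FPKM with SAA1 and 70.6 FPKM in vehicle, and Nras, a RAS protein upstream of it, at 53.9 FPKM with SAA1 and 66.9 FPKM in vehicle. Srf itself was at 21.0 FPKM with SAA1 and 24.5 FPKM in vehicle. Of 14 tested calcineurin, NFAT and MEF2 genes, 1 was called lower and none higher, 7.14% of the list, near the 6.52% of all tested genes. It was Nfatc1, an NFAT factor that T cells induce on stimulation, at 17.9 FPKM with SAA1 and 25.1 FPKM in vehicle (log2 ratio -0.48 ± 0.21, adjusted p 0.019 in the authors' deposited table). Ppp3ca, a catalytic subunit of calcineurin, was at 3.63 FPKM with SAA1 and 4.90 FPKM in vehicle and was not called. The medians of the ERK and calcineurin lists were 0.01 and -0.07.

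Of 16 tested genes of the cAMP and CREB route, 2 were called higher and none lower, 12.5% of the list beside 6.52% of all tested genes, with a median of 0.03. Crem, a CREB-family gene whose inducible short products repress cAMP-responsive genes, rose to 49.2 FPKM with SAA1, against 31.8 FPKM in vehicle (log2 ratio 0.63 ± 0.21, adjusted p 0.0019 in the authors' deposited table). Its locus is shared with another gene row. Sik1, a kinase induced by cAMP that restrains the CREB coactivators, rose to 10.5 FPKM with SAA1, against 7.42 FPKM in vehicle (0.50 ± 0.22, adjusted p 0.025 in the authors' deposited table). Both are themselves classical CREB targets, as are the Nr4a genes. The other 14 tested genes of the list were not called. From the normal p of the statistic neither Crem nor Sik1 was called, with adjusted values of 0.11 and 0.38. Whether CREB activity differed between the groups was not tested.

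Other immediate-early genes went both ways, as the members did. Of 29 tested, 4 were called higher and 3 lower, 24.1% of the list beside 6.52% of all tested genes. The median log2 ratio was 0.05. Ier3, a regulator of cell survival, rose to 36.9 FPKM with SAA1, against 13.5 FPKM in vehicle (1.45 ± 0.24). Nfil3, a basic leucine zipper repressor, rose to 15.6 FPKM with SAA1, against 9.32 FPKM in vehicle (0.74 ± 0.23), and Fosl2, an AP-1 subunit, rose by 0.60 ± 0.20. Cd69, an early surface marker of activation, fell to 109.8 FPKM with SAA1, against 190.1 FPKM in vehicle (-0.79 ± 0.20). The adjusted p of these 4 was 0.0019 in the authors' deposited table. The remaining calls were Csrnp1 (0.52 ± 0.21), which was higher, and Myc (-0.48 ± 0.20) and Dusp2 (-0.44 ± 0.20), which were lower. The 20 tested genes of the T cell receptor complex and its proximal signalling proteins had a median log2 ratio of -0.03. Of these, 3 were called, all lower, 15% of the list beside 6.52% of all tested genes. They were Trat1 (-1.50 ± 0.25), Lcp2 (-0.53 ± 0.20) and Cd3e (-0.47 ± 0.22).

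Genes that have been linked to EGR2 and EGR3 in T cells were described in a pair of lists. Of 16 tested negative regulators, 3 were called lower and 1 higher, 25% of the list beside 6.52% of all tested genes. Their median log2 ratio was -0.09. Cdkn1a, the cell cycle inhibitor p21, was at 42.3 FPKM with SAA1 and 67.8 FPKM in vehicle (-0.68 ± 0.20, adjusted p 0.0019 in the authors' deposited table). Crtam, a surface receptor of activated T cells, was at 8.76 FPKM with SAA1 and 13.4 FPKM in vehicle (-0.61 ± 0.23, adjusted p 0.0047 in the authors' deposited table). Id3, an inhibitor of E proteins that EGR factors induce in thymocytes, was at 273 FPKM with SAA1 and 363 FPKM in vehicle (-0.41 ± 0.20), and its adjusted p, 0.0498 by the authors' deposited table, lies at the threshold. Cdkn1b, the inhibitor p27, rose instead (0.58 ± 0.21). The other 12 tested genes were not called, among them Cblb (log2 ratio 0.13), Itch (-0.09), Dgka (-0.05), Dgkz (0.04) and Socs3 (0.43). By sign, 5 of the 16 lay above 0 and 11 below.

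Of 13 tested effector genes linked to EGR factors, 2 were called lower and none higher, with a median of -0.10. Ccnd2, cyclin D2, whose locus is shared with another gene row, was at 94.96 FPKM with SAA1 and 138 FPKM in vehicle (log2 ratio -0.54 ± 0.20). Cd40lg, the CD40 ligand that helps B cells, was at 35.5 FPKM with SAA1 and 50.7 FPKM in vehicle (-0.51 ± 0.21). Their adjusted p was 0.0047 and 0.0092 in the authors' deposited table. Over both lists, 5 of 29 tested genes were called lower and 1 higher, beside 2.55% lower and 3.97% higher of all tested genes; from the normal p, 1 was called lower, Cdkn1a, and none higher. These lists rest on published links in various T cell settings and were chosen with earlier results of these data known, so the counts are a description. No EGR binding was measured here.

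Genes linked to NR4A receptors in exhausted and regulatory T cells gave 2 higher and 1 lower call among 12 tested, with a median of 0.05. The calls were 25% of the list, beside 6.52% of all tested genes. Nt5e, the ectoenzyme CD73, was at 4.30 FPKM with SAA1 and 0.795 FPKM in vehicle (2.44 ± 0.32), and Ctla4, an inhibitory receptor, at 745 FPKM with SAA1 and 299.6 FPKM in vehicle (1.31 ± 0.20). Both had an adjusted p of 0.0019 by the authors' deposited table. Bcl2l11, the death-promoting protein BIM, was lower at 2.56 FPKM with SAA1 and 3.95 FPKM in vehicle (-0.63 ± 0.25, adjusted p 0.013 in the authors' deposited table). The other 9 tested genes were not called, among them Pdcd1 (log2 ratio -0.09), Tox (-0.09), Lag3 (0.08) and Tigit (-0.72). Of the 11 genes that reached 1 FPKM, 6 lay above 0 and 5 below. Foxp3, Havcr2, Tox2 and Entpd1 were under 1 FPKM in both groups and were not tested. No NR4A binding was measured here.

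**Figure D5:**
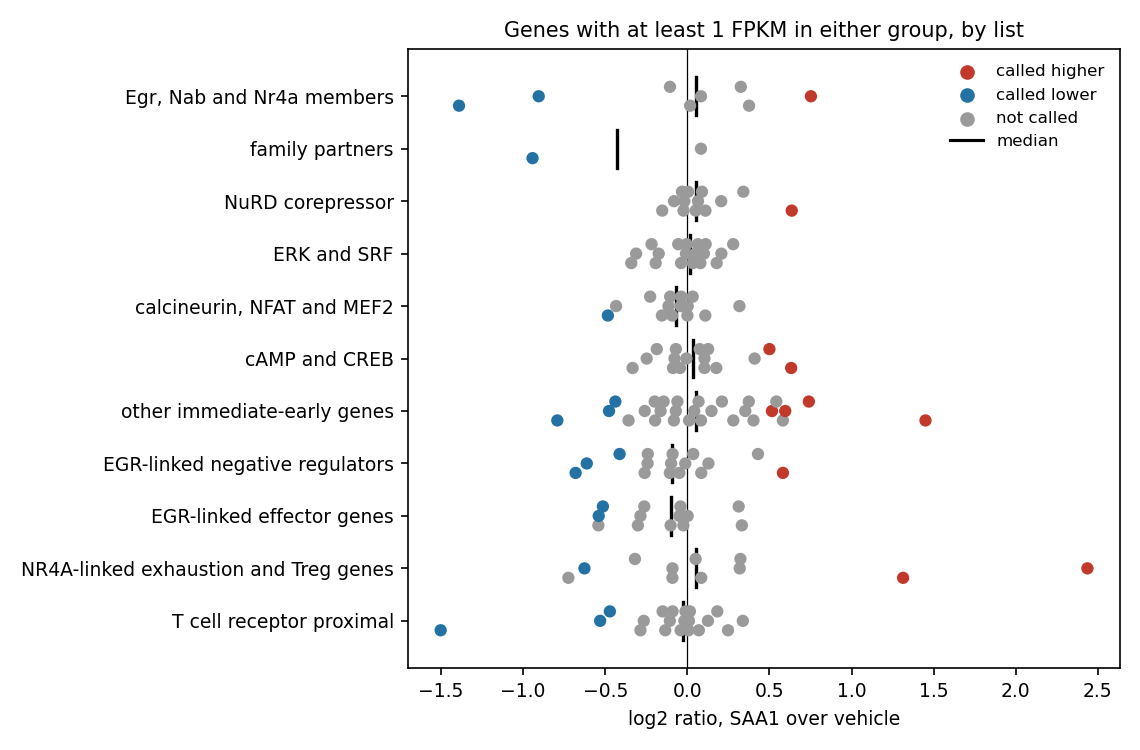
The log2 ratio of SAA1 over vehicle for each tested gene that reached 1 FPKM in a group, by list; points are genes, vertical offsets only separate them, colour gives the call by the authors' adjusted p and the black bar is the median. Calls on both sides of 0 stand in the rows of the members, the immediate-early genes, the negative regulators and the NR4A-linked genes, while the medians of all lists with more than 2 genes lie between -0.10 and 0.05.

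Markers of the labelled cell type were present. All 6 T cell markers were expressed, with a summed level of 844 FPKM with SAA1 and 890 FPKM in vehicle. Cd4 was at 131 FPKM with SAA1 and 162 FPKM in vehicle and was not called, while Cd3e was called lower and Thy1 higher, at 96.8 FPKM with SAA1 and 66.0 FPKM in vehicle. The 5 Th17 markers were all called higher, Il17a at 568 FPKM with SAA1 and 56.0 FPKM in vehicle and Il17f at 898 FPKM with SAA1 and 145 FPKM in vehicle. None of 4 B cell markers and none of 9 myeloid and dendritic markers reached 1 FPKM, with summed levels of 1.34 and 1.08 FPKM with SAA1 and of 1.90 and 1.21 FPKM in vehicle. Of 5 CD8 and natural killer markers, Nkg7 and Cd8b1 reached 1 FPKM, at 31.4 and 4.24 FPKM with SAA1 and 33.5 and 4.32 FPKM in vehicle. The part of these marker differences, the large ones of the Th17 genes included, in the results for the Egr and Nr4a genes was not tested.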

How the data were processed

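RNA of Th17 cultures was sequenced in 4 libraries, 2 per group, which were grouped by their titles; TruSeq libraries were made from total RNA, per the labels' protocols. TopHat2 and Cuffdiff, without versions, and the builds mm9 and mm10 are named in the submitters' processing notes; the sources used here give neither scaling nor the use of strand. The single table, in Cuffdiff's layout per the file headers, gives 1 FPKM value per gene and group as deposited by the authors. It also holds the authors' test statistic, a score, and the p-value and q-value (adjusted p) deposited by the authors. Depth is unknown.

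Log2 ratios were recomputed as SAA1 over vehicle, without a pseudocount, and each SE as that ratio over the statistic; 95% intervals are normal. The tests planned for values per library could not be used, so the authors' test at an adjusted p under 0.05 was the main one. Medians cover tested genes that reached 1 FPKM in a group. Of symbols in the GRCm38 table, 99.0% overlapped their position there, so coordinates are on mm10 (GRCm38), starting from 1. Python 3.11.15 with pandas 2.3.3 and scipy 1.17.1 was used, and the calling steps were tested on simulated data. There the p-value was set to the normal p of the statistic, so that test does not bear on the authors' p. Members and the 10 gene lists were chosen with earlier results of these data known. Named genes are the members, up to 4 called genes per list by adjusted p and then by fold, and otherwise those with the largest fold until 2 were named. Cd3e, Cd4, Il17a and Il17f were planned as the check of the cell type. Egr4, Rxrg, Srf, Stat6, Csrnp1, Myc, Dusp2, Thy1, Nkg7 and Cd8b1 are outside these rules, chosen with their values seen. So are Cblb, Itch, Dgka, Dgkz, Socs3, Pdcd1, Tox, Lag3, Tigit, Foxp3, Havcr2, Tox2 and Entpd1. Alternatives covered thresholds, a fold minimum, the adjustment, the p-value, pseudocounts, centring, FPKM minimums and rows that share a locus. Erythroid markers on the list were not matched in the table.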

Additional observations from a re-analysis of the deposited data

How the results depend on the processing

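The calls of Egr1, Egr3 and Nr4a2, and the absence of a call for the other 5 members, held at an adjusted p under 0.01 or 0.1, with a 1.5-fold minimum, with the adjustment over genes with at least 1 FPKM, and with the normal p of the statistic. Leaving out rows that share a locus removed Nab2 and kept the deposited adjusted p, so no remaining member's call could change. A threshold of 0.01 or the fold minimum cannot add a call, and a threshold of 0.1 cannot remove one. Egr1, Egr3 and Nr4a2 had the smallest adjusted p, 0.0019, so 0.01 could not remove them either. Only the adjustment over genes with at least 1 FPKM and the normal p could both add and remove calls. A pseudocount of 0.1 or 1 FPKM cannot change the sign of a ratio. Centring took off the median of the tested genes that reached 1 FPKM, -0.02, and no member lay between that and 0. Kept signs are therefore no test of the members. With these settings the log2 ratio of Egr3 lay between -1.37 and -1.22. Over all genes the calls moved more: 283 higher and 153 lower at 0.01, 187 lower with the fold minimum, and 155 higher and 92 lower from the normal p, against 456 and 293. From the normal p, 16 of the 24 calls among the lists were lost; the cause was not tested. No paired analysis was possible because the table holds 1 value per group and none per library, and omission of each replicate was not run for the same reason. The spread between libraries and the depth therefore limit every value here.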
